A study of Mus musculus with 8 samples.

Results

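DNA replication and the supply of its nucleotides are carried out by a compact set of proteins, and the transcripts of 49 of them were followed in SV-LECs exposed to TGFβ1. The genes were taken by symbol from the table of counts, where 49 of 49 were found among 55471 genes, and all 49 passed the filter on low counts that left 13818 genes for testing. SV-LECs are a mouse lymphatic endothelial line immortalized with SV40 large T antigen, so the results refer to 1 line of cells in culture. The line was cultured in high-glucose DMEM with serum, while the medium during the treatment of the sequenced samples is not stated. Cells were either left untreated or given 10 ng/ml TGFβ1 for 72 h, with 4 RNA samples per group. The study describes these samples as technical replicates, so that the errors and p-values below cover technical spread and not the spread between independent experiments.

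Replication begins with licensing, in which the origin recognition complex (ORC), CDC6 and CDT1 load the ring of MCM2 to MCM7 onto DNA, while geminin holds CDT1 back. CDC45, the GINS complex and MCM10 then turn the ring into an active helicase, RPA coats the single strands, and primase with polymerases alpha, delta and epsilon copies them with the sliding clamp PCNA, which the RFC complex loads. Ribonucleotide reductase, thymidylate synthase, thymidine kinase and dUTPase provide and clean the deoxynucleotides, and CAF-1 places histones on the new DNA. Many of these genes are transcribed mainly in G1 and S phase, under the control of E2F factors, and TGFβ is known to arrest several epithelial and endothelial cell types in G1.

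The libraries held 19182616 to 26077972 counts when untreated and 18952504 to 26386941 counts when treated, of which a single member took 141 to 19787. Of 10 endothelial markers, Pdpn, Flt4 and Kdr lay above 1 CPM (read counts divided by the TMM-normalized library size and scaled to a common total) in every library, whereas the other 7, including Prox1, Lyve1, Pecam1 and Cdh5, lay below 1 CPM in every library. Leukocyte markers summed to 5.88 to 7.82 CPM in untreated and 14.9 to 17.0 CPM in TGFβ1-treated libraries, nearly all of it from Cd68, and Ptprc had at most 1 count. Of the epithelial markers, which summed to 34.1 to 40.3 CPM and 37.0 to 43.4 CPM, Krt14 alone exceeded 1 CPM in every library. Of 5 smooth muscle markers all 5 were significantly higher after TGFβ1, beside 37.6% of all genes tested, though Myh11 had at most 23 counts. Their sums were 837 to 898.5 CPM in untreated and 2103 to 2222 CPM in TGFβ1-treated libraries. Fibroblast markers, led by Col1a1 and Col1a2, summed to 8021 to 10360 CPM and to 10440 to 11871 CPM. Of these 6 genes 2 were lower and 2 higher, near the 38.0% and 37.6% of all genes tested. The part of these marker shifts in the results below was not tested. In bulk RNA, fewer cells in S phase and less of each transcript per cell cannot be told apart. Levels are relative to the whole library, and the amount of RNA per cell is not given.

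The mRNAs of nearly all 49 genes had lower levels, relative to the whole library, in TGFβ1-treated SV-LECs. With edgeR's likelihood ratio test and an FDR under 0.05, 47 of the 49 genes were lower after TGFβ1, beside 38.0% of all genes tested, and 1 gene, Orc1, was higher, beside 37.6%. Orc4 was the single gene that did not pass the test. In 47 genes each TGFβ1-treated library lay below each untreated library, which held for 35.1% of all genes tested. The median log2 fold change over the 49 genes was -0.61, with a middle range of -0.86 to -0.43, beside a median of -0.0064 over all genes tested. A total of 9 genes fell by more than 1 on the log2 scale, against 6.56% of all genes tested, and 33 fell by more than 0.5, against 17.8%. The summed level of the 49 genes went from 7884 ± 113 CPM to 5219 ± 37.2 CPM (mean ± SD, n = 4), or 66.2% of the untreated level, and their share of all counts went from 0.790 to 0.818% in untreated libraries to 0.503 to 0.512% in TGFβ1-treated libraries.

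**Figure D1:**
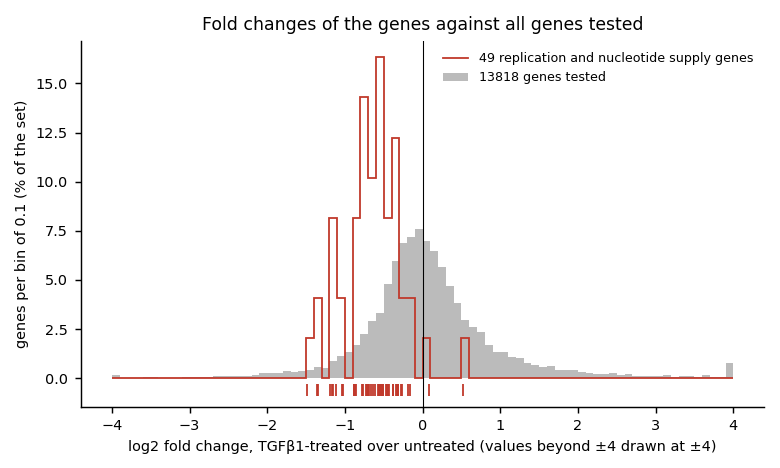
Log2 fold changes (TGFβ1-treated over untreated) of the 13818 genes tested, as grey bars, and of the 49 replication and nucleotide supply genes, as a red outline with 1 tick per gene; the vertical axis gives the percentage of each set per bin. The 49 genes lie almost entirely to the left of 0, around their median of -0.61, while all genes tested centre on 0.

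The decrease was described by complex, without a test of the differences between complexes. The median log2 fold change was -0.80 for the helicase activation genes, -0.77 for Okazaki fragment maturation, -0.75 for Ung, Dtl and the CAF-1 genes, -0.73 for RPA, -0.70 for polymerases and primase, -0.68 for the nucleotide enzymes, -0.61 for the clamp and clamp loader, -0.49 for the MCM helicase and -0.32 for origin recognition and licensing. The range within some complexes was wider than that between the medians, since MCM genes ran from -1.35 to -0.17 and helicase activation genes from -1.49 to -0.33. Okazaki fragment maturation held 2 genes and RPA 3. The order of the medians also depended on the processing. With the GC trend of each library removed, they were -0.57 for RPA, -0.66 for polymerases and primase and -0.61 for the nucleotide enzymes.

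**Figure D2:**
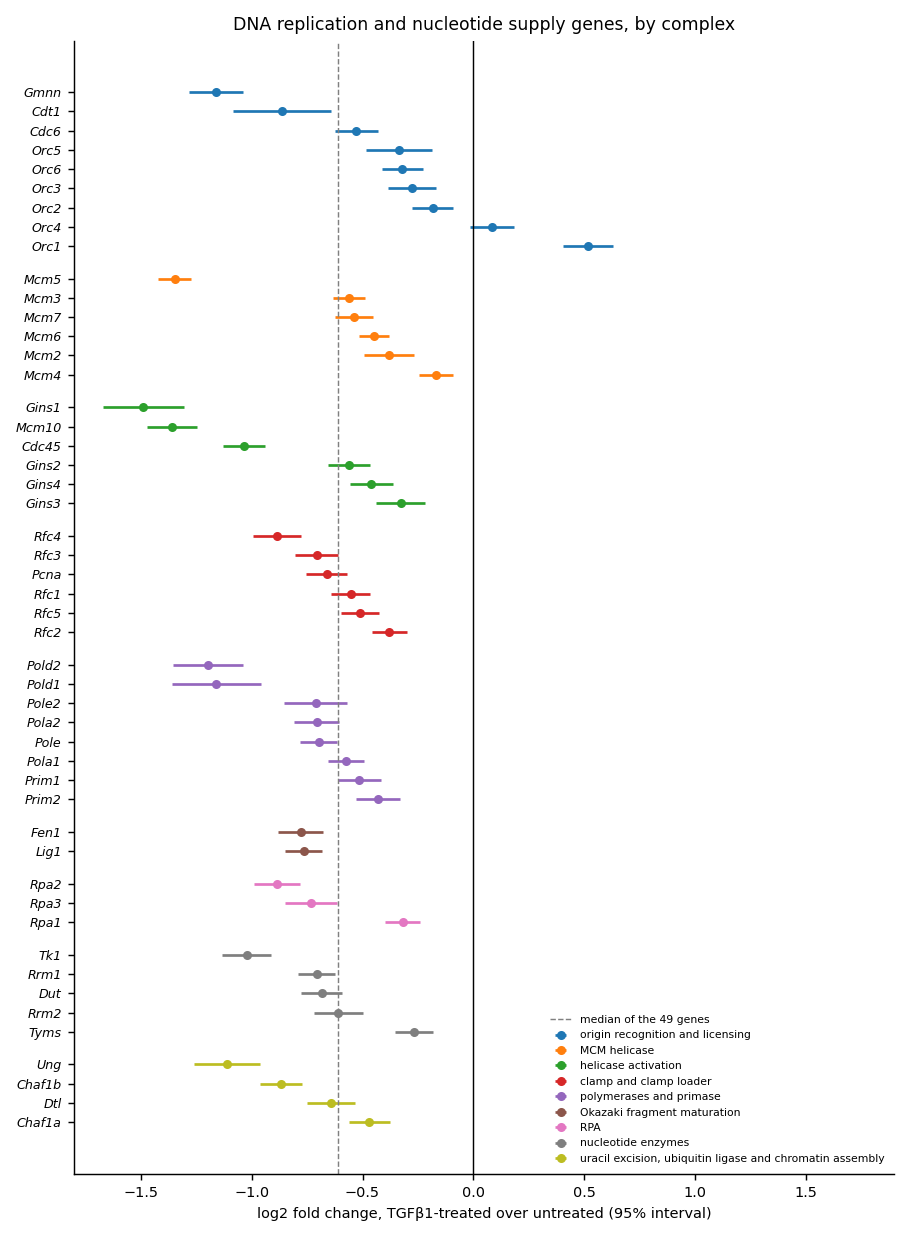
Log2 fold change of each of the 49 genes with its 95% interval from the edgeR fit, grouped and coloured by complex, with the median of -0.61 as a dashed line. Gins1, Mcm10 and Mcm5 lie farthest to the left, Orc4 spans 0, and Orc1 alone lies wholly to the right of 0.

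E2F letters in the promoters are shown because they are a known mark of S phase genes and because 47 of the 49 members were lower. Promoters came from RefSeq (GRCm38.p6) for 41 of the 49 genes. The letters TTTCCCGC, TTTCGCGC, TTTGCCGC and TTTGGCGC were searched on both strands in the 250 bases before the start; matches can overlap, as in Mcm5. They were found in 10 of the 41 genes (24.4%), against 2.16% of the 27025 genes counted in the reference and 4.00% of the 10199 tested genes counted there. These counts leave out 1 chromosome, which holds none of the 49 genes. The 10 genes were Cdc6, Dtl, Gins3, Mcm5, Mcm6, Mcm7, Orc1, Orc3, Pola1 and Rfc3. In this order their log2 fold changes were -0.53, -0.64, -0.33, -1.35, -0.45, -0.54, 0.52, -0.27, -0.57 and -0.71. The median over the 49 genes was -0.61. They thus included Orc1, which was higher, and Mcm5, which had the third lowest log2 fold change, and a link between match and change was not tested. In Cdc6, Gins3, Mcm7, Orc1 and Rfc3 the match lies between the GENCODE start and a RefSeq start farther downstream, so it is upstream of the RefSeq start alone. The CHR letters TTTGAA and TTCGAA, a mark of genes expressed in G2 and M phase, were found in 7 of 41 genes (17.1%), against 19.6% of all genes and 14.4% of the tested ones. A match is a stretch of letters and was not tested for binding. Windows of 60 bases from 4 genes are given 5′ to 3′ on the strand of the gene, with the matched letters in capitals; all 4 lie upstream of both the RefSeq and the GENCODE start. The Mcm5 window is chr8:75109334-75109393 (plus strand), the Mcm6 window chr1:128359719-128359778 (minus strand), the Dtl window chr1:191575545-191575604 (minus strand) and the Pola1 window chrX:93632260-93632319 (minus strand).
Mcm5: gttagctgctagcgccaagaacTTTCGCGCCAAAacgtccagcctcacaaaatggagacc
Mcm6: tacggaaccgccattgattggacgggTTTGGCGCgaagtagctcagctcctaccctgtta
Dtl: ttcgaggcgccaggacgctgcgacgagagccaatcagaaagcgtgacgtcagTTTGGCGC
Pola1: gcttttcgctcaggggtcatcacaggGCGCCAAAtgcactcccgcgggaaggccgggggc
In Mcm5 a match on each strand overlaps to form 1 run of capitals, whereas each of the other windows holds a single match. The Dtl match ends at the base before the start, the Mcm6 match in the window begins 47 bases before it and the Pola1 match 138 bases before it. Mcm6 has 3 matches in the 250 bases, and its window shows the match nearest the start.

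Origin recognition and licensing held both the only rise by the main test and some of the smallest decreases. Orc1 (ENSMUSG00000028587, chr4:108579423-108614833, plus strand, GRCm38), which encodes the largest ORC subunit and the one whose amount is regulated through the cell cycle, stood at 27.2, 24.3, 27.1 and 25.2 CPM in the untreated libraries and at 37.3, 38.2, 35.9 and 36.95 CPM in the TGFβ1-treated libraries. Each treated library was above each untreated one, a pattern found in 34.7% of all genes tested, and the log2 fold change was 0.52 (SE 0.058, FDR 1.53e-18, edgeR likelihood ratio test, Benjamini-Hochberg FDR over all genes tested). Orc4, a core ORC subunit, had 43.4, 44.6, 46.6 and 45.2 CPM in untreated and 46.6, 48.8, 48.96 and 46.1 CPM in treated libraries; the groups overlapped, and the log2 fold change of 0.083 (95% interval -0.016 to 0.18) did not pass the test with an edgeR FDR of 0.124. The other ORC subunits were lower by small amounts, with log2 fold changes of -0.18 for Orc2, -0.27 for Orc3, -0.34 for Orc5 and -0.32 for Orc6. With the GC trend of each library removed, an alternative chosen after seeing the data, Orc4 was called higher (log2 fold change 0.30, edgeR FDR 9.30e-09), Orc2 was no longer called (-0.088, edgeR FDR 0.0768) and Orc3 had a log2 fold change of -0.16 (edgeR FDR 0.00286). Scaling by total counts and leaving out the filter gave Orc4 log2 fold changes of 0.015 and 0.052, without a call. In the main comparison, Orc2 went from 73.3, 79.3, 78.6 and 74.8 CPM to 66.2, 68.1, 66.1 and 69.2 CPM, without overlap of the groups. Over the 6 ORC genes, 4 were lower and 1 was higher, beside 38.0% and 37.6% of all genes tested, and 1 was not called, with a median of -0.23.

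The log2 fold changes of the licensing factors lay below those of the ORC genes. Gmnn, the gene of geminin, the inhibitor of CDT1, had 65.1, 60.7, 70.7 and 69.7 CPM in untreated and 30.2, 28.4, 30.1 and 30.2 CPM in TGFβ1-treated libraries. The groups lay far apart, and the log2 fold change was -1.16 (SE 0.062, edgeR FDR 4.09e-77). Cdt1, which brings the MCM ring to origins, had 175, 145, 134 and 118 CPM and 73.6, 65.5, 84.5 and 90.4 CPM, a log2 fold change of -0.86 (SE 0.11). The untreated Cdt1 values ran over a wide range, but even the lowest of them lay above the highest treated value. Cdc6, the ATPase that works with ORC, had a log2 fold change of -0.53, from 58.6 ± 2.00 CPM to 40.6 ± 0.580 CPM (mean ± SD, n = 4).

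The 6 subunits of the MCM ring, which are present in equal numbers in the ring, did not decrease by equal amounts. Mcm5 (ENSMUSG00000005410, chr8:75109569-75128439, plus strand) stood at 364, 363, 373 and 364 CPM in untreated and 149, 143, 140.0 and 144 CPM in TGFβ1-treated libraries, or 39.3% of the untreated level by the fit, and the log2 fold change was -1.35 (SE 0.038, edgeR FDR 1.67e-267). Mcm4 stood at 320.3, 315, 319 and 336 CPM and 296, 289, 284 and 280.5 CPM, with a log2 fold change of -0.17 (95% interval -0.25 to -0.09, edgeR FDR 4.33e-05), which was -0.091 (edgeR FDR 0.0190) with the GC trend of each library removed. Both genes changed without overlap of the groups, yet their intervals lie far apart. Mcm2 had 423, 405, 397 and 348 CPM and 298, 287, 310.1 and 315 CPM, with a log2 fold change of -0.38. The remaining subunits lay between, with log2 fold changes of -0.56 for Mcm3, -0.45 for Mcm6 and -0.54 for Mcm7. For Mcm7, 13.2% of the 75-base stretches also occur in other genes, Gm5487 on the same strand and Ap4m1 on the opposite strand, and reads from them cannot be assigned with certainty.

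The 6 MCM mRNAs were also expressed as shares of their sum, per kilobase of transcript; protein was not measured in these libraries. Mcm5 made up 14.7, 14.9, 14.9 and 14.9% of the summed level in the untreated libraries and 8.63, 8.45, 8.21 and 8.47% in the TGFβ1-treated libraries. Mcm4 made up 12.1, 12.1, 12.04 and 12.9% and 16.2, 16.05, 15.7 and 15.6%. The Mcm5 share thus went from 14.8 ± 0.122% to 8.44 ± 0.174% (mean ± SD, n = 4), and the Mcm4 share from 12.3 ± 0.420% to 15.9 ± 0.306%. The size of each share depends on the length used. Per kilobase of all annotated exons, mean levels went from 91.6 to 36.0 CPM for Mcm5 and from 89.9 to 80.05 CPM for Mcm4. Mcm6 had the largest share in both groups, from 22.1 ± 0.328% to 23.4 ± 0.208%, but per kilobase of all annotated exons Mcm4 exceeded it in the treated libraries, with 80.05 against 73.7 CPM per kilobase. Mcm5 and Mcm4 were set beside each other after their values had been seen, so this contrast is a description without a test.

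**Figure D3:**
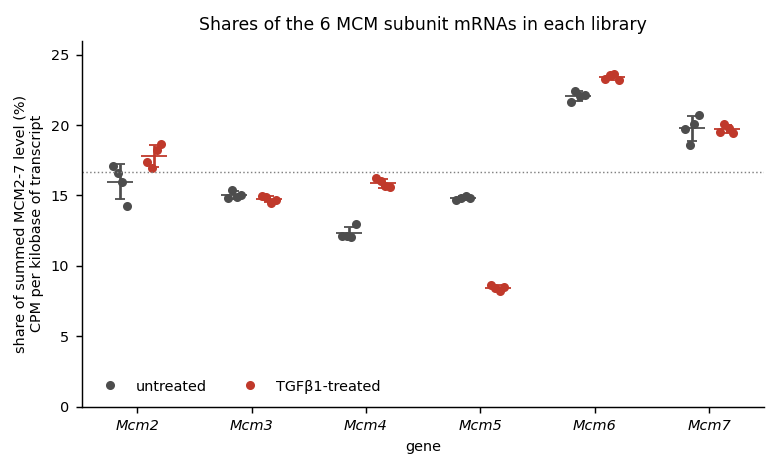
Share of each MCM subunit mRNA in the summed level of Mcm2 to Mcm7, in CPM per kilobase of transcript, with 1 point per library, the mean as a horizontal mark and the SD as an error bar; the dotted line is an equal share. Mcm5 drops from a mean of 14.8% in untreated to 8.44% in TGFβ1-treated libraries, while Mcm4 moves from 12.3% to 15.9%.

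The genes that convert the loaded ring into a helicase included the steepest decreases of the set. Gins1 (ENSMUSG00000027454, chr2:150905400-150931280, plus strand), a subunit of the GINS complex, had 23.1, 21.3, 25.2 and 22.5 CPM in untreated and 7.63, 7.30, 8.56 and 9.12 CPM in treated libraries. This was 35.6% of the untreated level by the fit and the largest decrease among the 49 genes, with a log2 fold change of -1.49 (95% interval -1.67 to -1.31, edgeR FDR 1.02e-58). Its partner Gins3 had 30.3, 30.5, 31.7 and 32.4 CPM and 24.4, 23.6, 25.7 and 25.6 CPM, a log2 fold change of -0.33 (95% interval -0.44 to -0.22). The groups did not overlap for either subunit, and the intervals of the 2 log2 fold changes did not overlap either. Gins2 and Gins4 had log2 fold changes of -0.56 and -0.46. Cdc45, the partner of MCM and GINS in the helicase, had 84.99, 87.3, 85.1 and 86.6 CPM and 44.2, 41.2, 40.1 and 42.3 CPM, a log2 fold change of -1.04 (SE 0.048). Mcm10, which acts when the helicase starts to move, had a log2 fold change of -1.36, from 57.9 ± 1.96 CPM to 22.6 ± 1.26 CPM (mean ± SD, n = 4).

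The clamp and its loader were lower in all 6 genes, beside 38.0% of all genes tested, and varied less than the helicase genes. Pcna, the sliding clamp, had 273, 259, 293 and 293 CPM in untreated and 177, 173, 178 and 180.1 CPM in TGFβ1-treated libraries, a log2 fold change of -0.66 (SE 0.047). Rfc4, a small subunit of the loader, had 75.1, 75.2, 79.3 and 70.1 CPM and 42.8, 41.04, 38.7 and 39.98 CPM, a log2 fold change of -0.89 (SE 0.055). Rfc2, another small subunit, had 119, 122, 121 and 118 CPM and 95.4, 92.7, 90.8 and 90.9 CPM, a log2 fold change of -0.38 (SE 0.041). No treated library reached the lowest untreated one in any of these 3 genes, a pattern found in 35.1% of all genes tested. Rfc1, the large subunit, had 236, 251, 249 and 266 CPM and 172, 176, 171 and 164 CPM, a log2 fold change of -0.55, and Rfc3 had 99.2, 106, 105 and 102 CPM and 58.6, 66.4, 63.8 and 63.8 CPM, a log2 fold change of -0.71. Rfc5 had a log2 fold change of -0.51. Of the 75-base stretches of Pcna, 13.8% also occur in its pseudogene copy Pcna-ps2, and of those of Rfc2 13.9% occur on the opposite strand of other genes, mainly Lat2, so that reads from these stretches cannot be assigned with certainty.

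The largest decreases among the replicative polymerases were those of the polymerase delta genes. Pold2, the delta subunit that joins the catalytic core to the rest of the enzyme, had 90.4, 89.5, 81.3 and 70.7 CPM in untreated and 34.02, 34.03, 37.0 and 39.6 CPM in treated libraries, a log2 fold change of -1.20 (SE 0.08, edgeR FDR 4.26e-49). Pold1, its catalytic subunit, had 131, 119, 108 and 90.2 CPM and 49.4, 42.6, 55.1 and 53.7 CPM, a log2 fold change of -1.16 (SE 0.10). The untreated values of both genes spread widely, with untreated library 4 lowest in each, and still did not overlap with the treated values. Pole, the catalytic subunit of polymerase epsilon, had 188, 188, 192 and 182 CPM and 121, 117, 110.2 and 114 CPM, a log2 fold change of -0.70, and its subunit Pole2 a log2 fold change of -0.71. For the polymerase alpha and primase complex, which makes the primers, the log2 fold changes were -0.57 for Pola1, -0.71 for Pola2, -0.51 for Prim1 and -0.43 for Prim2. Prim2, with 89.1, 89.4, 97.4 and 85.3 CPM in untreated and 67.6, 66.2, 68.7 and 65.7 CPM in treated libraries, had the smallest decrease of the 8 polymerase and primase genes.

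The genes for joining lagging-strand fragments moved together. Fen1, the flap endonuclease, had 139, 131, 144 and 152 CPM in untreated and 85.7, 79.1, 83.99 and 81.1 CPM in treated libraries, a log2 fold change of -0.78 (SE 0.052). Lig1, the ligase that seals the fragments, had 196, 193, 199 and 186 CPM and 117, 108, 116 and 115 CPM, a log2 fold change of -0.77 (SE 0.043). The log2 fold changes of these genes lie within the SE of each other. On the other strand, however, other genes cover 84.2% of the exon bases of Fen1 and 5.79% of those of Lig1. RPA, the complex that covers single-stranded DNA, was less even: Rpa2 had 59.2, 59.6, 63.5 and 62.2 CPM and 33.4, 31.2, 34.8 and 32.95 CPM, a log2 fold change of -0.89 (95% interval -0.99 to -0.78). Rpa1, the large subunit that binds the DNA, had 329, 339, 353 and 328 CPM and 265, 270.1, 273 and 273 CPM, a log2 fold change of -0.32 (95% interval -0.40 to -0.24). Rpa3 lay nearer to Rpa2, with a log2 fold change of -0.73.

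Among the nucleotide enzymes the salvage enzyme had the largest decrease. Tk1, the thymidine kinase of S phase cells, had 90.1, 90.8, 101 and 98.6 CPM in untreated and 49.1, 44.01, 47.97 and 46.2 CPM in treated libraries, a log2 fold change of -1.02 (SE 0.056). Tyms, which makes thymidylate de novo, had 129, 137, 141 and 135 CPM and 114, 109.6, 112 and 114 CPM, a log2 fold change of -0.27 (SE 0.043). Both passed the test, with edgeR FDRs of 2.04e-72 and 1.79e-09. Rrm1, the large subunit of ribonucleotide reductase, had 740.4, 743, 798 and 801 CPM and 482, 464, 466 and 476 CPM, a log2 fold change of -0.71. Rrm2, its S phase subunit, had 352, 314, 359.6 and 389 CPM and 229.7, 229.6, 232 and 235 CPM, a log2 fold change of -0.61. The treated Rrm2 values were almost identical, whereas untreated library 2 lay well below the other untreated libraries. Dut, the dUTPase that keeps uracil out of DNA, had a log2 fold change of -0.68. Per kilobase of the principal transcript, Rrm1 had 193 CPM in untreated and 118 CPM in treated libraries and Rrm2 had 161 and 106 CPM. Per kilobase of all annotated exons the order turned around, with 69.99 and 42.9 CPM for Rrm1 and 128 and 83.6 CPM for Rrm2, so no order of these levels is given.

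Ung, the glycosylase that removes uracil from new DNA, had 59.5, 54.5, 50.05 and 55.3 CPM in untreated and 24.7, 22.01, 26.5 and 28.02 CPM in treated libraries, a log2 fold change of -1.11 (SE 0.076). Dtl, the substrate receptor of the ubiquitin ligase that degrades CDT1 in S phase, had a log2 fold change of -0.64. The CAF-1 subunits Chaf1a and Chaf1b, which deposit histones behind the fork, both decreased, with intervals that did not overlap. On the other strand, Ubxn6 covers 52.5% of the exon bases of Chaf1a, and its part in this contrast was not tested. Chaf1b had 184, 173, 185 and 195 CPM and 103, 95.96, 101 and 104 CPM, a log2 fold change of -0.87 (95% interval -0.96 to -0.77), while Chaf1a had 162, 157, 170.2 and 174 CPM and 125.0, 115, 119 and 120.1 CPM, a log2 fold change of -0.47 (95% interval -0.56 to -0.38). In both genes each treated library lay below each untreated library, which held for 35.1% of all genes tested.

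**Figure D4:**
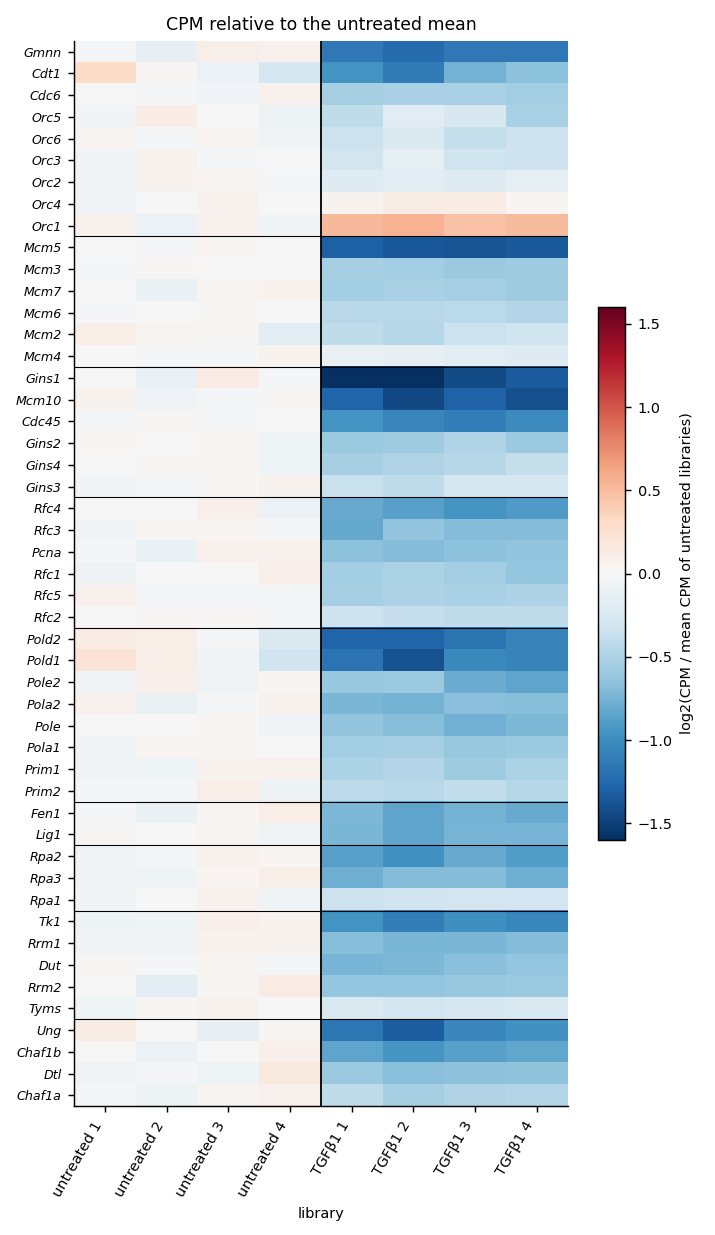
Heatmap of the 49 genes (rows, grouped by complex) in the 8 libraries (columns), coloured by the log2 ratio of CPM to the mean of the untreated libraries. The 4 TGFβ1-treated libraries are blue in nearly every row, Orc1 is red in each of them, and Orc4 stays pale throughout.

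Ratios between genes within a library do not depend on the scaling of libraries and were compared for 10 pairs. They were not corrected for GC content, which was 58.8% for Cdt1 against 49.8% for Gmnn, and 50.6% for Pole against 60.7% for Pold1. The part of the GC trend of each library in these ratios was not tested. Nor was that of genes on the other strand, which cover 52.5% of the exon bases of Chaf1a and 29.8% of those of Orc2. With 4 libraries against 4, an exact two-sided permutation test cannot give a p below 0.0286, and after Benjamini-Hochberg adjustment over the 10 pairs no pair passed 0.05, the smallest adjusted p being 0.0571. The groups did not overlap in 5 pairs. Tk1 over its mitochondrial counterpart Tk2 differed by -1.26 on the log2 scale, from 2.47 ± 0.097 to 1.21 ± 0.099 (mean ± SD, n = 4, exact permutation p 0.0286). Orc1 over Orc2 differed by 0.70, Cdc45 over Mcm2 by -0.66, Rrm2 over Rrm2b, the p53-inducible small subunit, by -0.54, and Chaf1a over Chaf1b by 0.40. These 5 pairs reached the smallest p that the design allows. The pairs were chosen with earlier results of these data known, so their p-values add no independent support to the single-gene values. In the other 5 pairs the groups overlapped: Pole over Pold1 differed by 0.46, Cdt1 over its inhibitor Gmnn by 0.30, Rfc3 over Rfc1 by -0.16, Pcna over Rfc1 by -0.11 and Rrm2 over Rrm1 by 0.10, with exact permutation p-values from 0.0571 to 0.143.

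**Figure D5:**
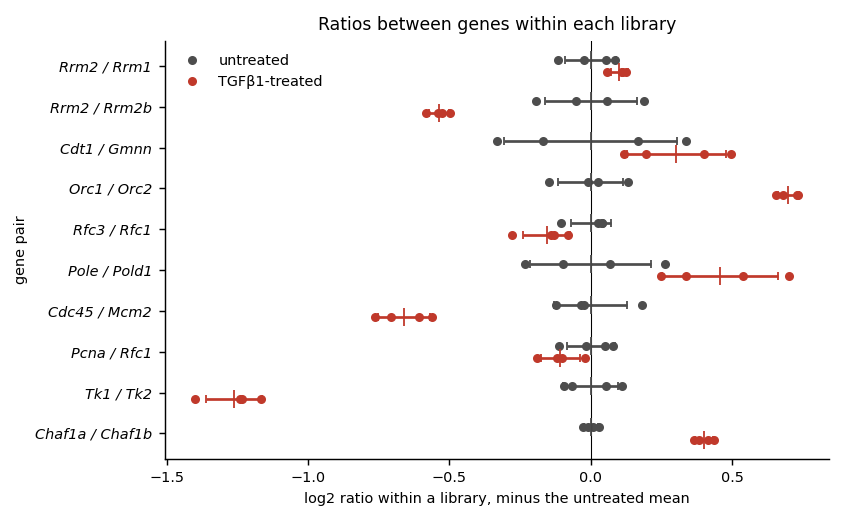
Log2 ratio of the counts of 2 genes within each library, minus the mean of the untreated libraries, for 10 gene pairs, with 1 point per library and the mean ± SD of each group. The groups are fully separate for Tk1/Tk2, Orc1/Orc2, Cdc45/Mcm2, Rrm2/Rrm2b and Chaf1a/Chaf1b, and they overlap for the other 5 pairs.

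The 49 genes were then set beside 67 other genes of replication and nucleotide metabolism. Of these 67, 51 were lower, 6 were higher and 10 were not called, with a median log2 fold change of -0.32, where 38.0% of all genes tested were lower and 37.6% were higher. Among 15 other initiation and fork factors, 13 were lower and none was higher, and the largest decrease was that of Ticrr, which is needed for origin firing, from 30.6 ± 2.00 to 11.6 ± 0.690 CPM (log2 fold change -1.39). Of 10 other polymerase and maturation genes 8 were lower, led by the helicase Pif1 at -2.95, and of 5 alternative clamp loader genes 4 were lower, led by Dscc1 at -1.13. All 8 histone chaperone and maintenance methylation genes were lower, led by the histone chaperone Asf1b at -1.24. Of 4 S phase cyclins and their kinase, Ccna2 had a log2 fold change of -2.18 and Cdk2 one of -0.19, while the cyclin E genes Ccne1 (0.13) and Ccne2 (-0.04) did not pass the test.

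Of 9 other deoxynucleotide genes 6 were lower, 1 was higher and 2 were not called; Dctpp1, a dCTP pyrophosphatase, had the largest decrease with a log2 fold change of -0.51, and Tk2 the single rise, 0.24. Tk2 had 28.4, 29.1, 29.2 and 27.5 CPM in untreated and 33.1, 34.9, 33.95 and 32.8 CPM in treated libraries, without overlap. Of 16 genes of de novo purine and pyrimidine synthesis 10 were lower and 5 were higher, beside 38.0% lower and 37.6% higher among all genes tested, so that the share of higher genes lay near that of all genes. Cad, which starts pyrimidine synthesis, went from 134 ± 4.60 to 279 ± 7.72 CPM (log2 fold change 1.06, edgeR FDR 5.10e-137), and Paics, a purine enzyme, from 472 ± 21.1 to 264 ± 3.17 CPM (log2 fold change -0.84). Rrm2b, the alternative small subunit of ribonucleotide reductase, had 30.9, 30.3, 29.2 and 28.8 CPM in untreated and 29.05, 27.9, 28.6 and 28.1 CPM in treated libraries. Its groups overlapped, and it did not pass the test, with a log2 fold change of -0.071 (edgeR FDR 0.223).

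The GC content of transcripts moved with the groups. The slope of a library's log2 level on GC content, relative to the mean of the 8 libraries, was -0.140 to -0.0123 per 10 percentage points in the untreated and 0.0340 to 0.128 in the TGFβ1-treated libraries. The 49 genes had a median GC content of 48.9%, against 50.2% for all genes tested. Members with more GC tended to have lower log2 fold changes (Pearson r -0.44, Spearman rho -0.41, across 49 genes that share the same 8 libraries). This direction is opposite to that of the slopes over the genes tested, which were higher in the TGFβ1-treated libraries. With the GC trend of each library removed, 46 members were lower and 2 higher. The members whose log2 fold change moved by more than 1.5 times were Orc2, Orc3, Orc4 and Mcm4, with the values given beside each. On the other strand, other genes covered more than 20% of the exon bases of Fen1 (84.2%), Gins2 (67.3%), Chaf1a (52.5%) and Orc2 (29.8%); the strand setting of the counting is not given in the sources used here, so that reads of these genes and of their partners may not have been separated.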

How the data were processed

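RNA of 8 samples of SV-LECs was sequenced by the authors, 4 untreated and 4 TGFβ1-treated, with a stranded poly(A) kit, single-end reads of 75 bases and alignment to GRCm38. The authors deposited counts of reads per gene, as whole numbers without normalization. The submitters' processing notes name bcl2fastq 2.20.0.422, STAR 2.7.3a and featureCounts 1.5.1, whereas the strand setting and the annotation release are not given in the sources used here. The 49 members, the lists and the tests were chosen with earlier results of these data known.

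The main comparison used edgeR 4.0.16 under R 4.3.3, with filterByExpr, TMM, glmFit, glmLRT and a Benjamini-Hochberg FDR of 0.05 over 13818 genes. CPM are counts divided by the TMM-normalized library size and scaled to a common total. Standard errors and 95% intervals are Wald values from the fitted negative binomial model. Lengths, GC content, gene positions and overlaps came from GENCODE M21, with the APPRIS principal transcript for lengths. The scripts were tested on simulated data. No pair of libraries was close enough to be counted as a duplicate.

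All 49 members may be named, beside the other genes and markers given by the rules below. Values per library are given for the largest and smallest change of each list, for members higher or not called and for genes of the fixed pairs. Of each list of other genes, the largest called rise and fall are named, and Cdk2, Ccne1, Ccne2 and Rrm2b were added after their values were seen. Markers of endothelial, fibroblast, smooth muscle, leukocyte and epithelial cells came from fixed lists.

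Alternatives were DESeq2 1.42.0 and its size factors, edgeR's quasi-likelihood test, scaling by total counts, no filter or a minimum of 1 CPM in 4 libraries, a prior count of 2, an FDR of 0.01, the replicate block and each library left out in turn. A correction of each library for GC content and GC slopes as a covariate were chosen after seeing the data. No pairing of the libraries by replicate number was seen.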

Additional observations from a re-analysis of the deposited data

Results flagged for a closer look

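In 5 of 98 groups of 4 libraries, 1 library lay far from the other 3 by Dixon's test at the 95% level. Chance gives such a gap in about 1 of 20 groups. Orc3 stood at 47.9 CPM in TGFβ1-treated library 2, against 42.4 to 43.3 CPM in the other treated libraries, and Gmnn stood at 28.4 CPM in the same library, against 30.1 to 30.2 CPM. In the untreated libraries, Mcm5 stood at 373 CPM in library 3, against 363 to 364 CPM, Rfc5 at 119.9 CPM in library 1, against 112 to 113 CPM, and Dtl at 142 CPM in library 4, against 121.8 to 124.8 CPM. In each of these genes the libraries of the other group lay outside the range of this group.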

How the results depend on the processing

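Each of the 49 members kept its direction and its side of the threshold under DESeq2, the quasi-likelihood test, both other scalings and both other filters. The same held for the stricter FDR, the replicate block and each library left out. It also held with the GC covariate and with the other prior count, which changes the fold changes and not the FDRs. The GC covariate was centred within each group, so it could not remove the GC difference between the groups. The replicate block gave 47 members lower and 1 higher with a median of -0.61. The same-numbered libraries did not deviate together (correlations -0.16, -0.079, -0.037 and -0.27), so no pairing by number was seen. This check cannot exclude a pairing, since the GC slopes of the libraries also differed within each group. With the GC trend of each library removed, 2 members were higher, and the medians were -0.23 for licensing, -0.54 for the clamp and its loader, -0.83 for Okazaki fragment maturation, -0.57 for RPA and -0.61 for the nucleotide enzymes. Total counts without composition factors, which moved the median of all genes to -0.07, gave -0.68 for all members, -0.56 for MCM, -0.87 for helicase activation, -0.67 for the clamp and its loader, -0.77 for polymerases, -0.84 for Okazaki fragment maturation, -0.80 for RPA, -0.75 for nucleotide enzymes and -0.82 for Ung, Dtl and CAF-1. With no filter, helicase activation had -0.83 and the clamp and its loader -0.64. With each library left out in turn, the median of the members ran from -0.66 to -0.59, and that of the clamp and its loader from -0.63 to -0.58. The causes were not tested. The libraries are technical replicates of 1 line, and depth set no limit on these members, which had at least 141 counts in each library.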
